A study of Mus musculus with 8 samples.

Results

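The 10 genes described here, Fos, Fosb, Jun, Junb, Egr1, Dusp1, Ier2, Klf6, Zfp36 and Nr4a1, are immediate-early and MAPK response genes, chosen by symbol, and all 10 were found among the 52784 genes of the deposited table. They were measured by bulk RNA sequencing in 8 libraries, with trafficked maternal cells and the recipient's own cells sorted into separate libraries for each of 4 treatments of mouse pups. The study asked how maternal dendritic cells (DC) bear on the response of the fetus to in-utero transplantation (IUT) of hematopoietic cells.

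All pups were 1-week-old F1 offspring of BALB/c males and C57BL/6 (CD11c-DTR) females, in which cells with an active CD11c promoter carry the diphtheria toxin (DT) receptor. In DC control mIUT the dams received saline, and each fetus received 5000000 bone marrow mononuclear cells of B6 donors into the liver on embryonic day 14. In DC control pIUT the dams received saline and the donor cells came from BALB/c mice, the paternal strain. In DC-depleted pIUT the dams received DT, 5 ng/g body weight, on embryonic day 13, and the fetuses received BALB/c cells on embryonic day 14. Uninjected pups had no IUT, and the labels allow dams with or without DT for them. Whole-body mononuclear cells of the pups of a group were pooled, and maternal cells were sorted by H2K-b and recipient cells by H2K-d, so each origin and treatment is 1 library. Recipient F1 cells carry both H2K-b and H2K-d, so H2K-b alone does not set maternal cells apart from them. Whether cells with H2K-d were excluded from the maternal sort is not stated. B6 donor cells also carry H2K-b and BALB/c donor cells also carry H2K-d. The labels give CD45.1 for the B6 donors but do not state whether donor cells were gated out.

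Immediate-early genes are transcribed within minutes of a signal without new protein synthesis, through transcription factors that are already present and are phosphorylated by MAP kinases. Their mRNAs are usually short-lived, and their products include both transcription factors that start the next wave of genes and inhibitors that end the signal. In blood cells they respond to growth factors, antigen, adhesion and stress, and also to tissue dissociation and cell sorting. In bulk libraries fewer cells of a type and less RNA per cell cannot be told apart.

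The 8 libraries held 38543457 to 47965130 counts, so counting error was small for most of these genes. With 1 pooled library a group, comparisons of 1 library with another have no replicate check and no p-value, and intervals cover counting error only. The only p-values come from fits over all 8 libraries, in which origins or treatments stand in for replicates. A pair of libraries stood apart. Of the genes above 10 CPM (normalised counts per 1000000) in all other libraries, 9.51% were under 1 CPM in recipient uninjected and 4.86% in maternal DC control mIUT, against 0 to 1.26% in the other 6. Summed markers of granulocytes reached 162800 and 263500 CPM in the maternal and recipient DC control mIUT libraries and 1692 to 47200 CPM in the others. The paper describes the cells of these libraries as mononuclear. Summed erythroid markers ran from 210 to 180900 CPM, with hemoglobin genes at 0.0144% to 16.4% of counts.

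The promoters of 8 of the 10 genes were present in the RefSeq sequences used here, and 4 are shown because they hold the motifs through which such genes are known to be switched on. Each is the 250 bases before the start site in GRCm38.p6, written 5′ to 3′ along the gene. Capitals mark the cyclic AMP response element (CRE) TGACGTCA or its core site TGACG, the EGR motif GCGNGGGCG, the CArG box of the serum response element and the TATA box TATAAA.
Fos, chr12:85473640-85473889, plus strand: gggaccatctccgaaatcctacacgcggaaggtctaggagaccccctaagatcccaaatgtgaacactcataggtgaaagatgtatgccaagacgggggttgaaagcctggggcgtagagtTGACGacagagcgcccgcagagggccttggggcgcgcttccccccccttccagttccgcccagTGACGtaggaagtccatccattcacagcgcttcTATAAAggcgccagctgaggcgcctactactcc
Dusp1, chr17:26508473-26508722, minus strand: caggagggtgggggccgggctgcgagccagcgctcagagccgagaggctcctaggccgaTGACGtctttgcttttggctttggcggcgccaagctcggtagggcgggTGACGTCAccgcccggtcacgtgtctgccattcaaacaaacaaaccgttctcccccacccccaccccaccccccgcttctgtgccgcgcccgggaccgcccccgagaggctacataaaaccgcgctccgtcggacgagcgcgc
Zfp36, chr7:28379229-28379478, minus strand: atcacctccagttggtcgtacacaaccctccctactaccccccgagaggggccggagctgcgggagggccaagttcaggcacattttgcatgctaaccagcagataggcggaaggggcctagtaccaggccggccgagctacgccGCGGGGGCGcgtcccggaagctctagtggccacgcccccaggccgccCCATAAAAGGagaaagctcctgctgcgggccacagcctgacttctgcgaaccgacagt
Nr4a1, chr15:101266596-101266845, plus strand: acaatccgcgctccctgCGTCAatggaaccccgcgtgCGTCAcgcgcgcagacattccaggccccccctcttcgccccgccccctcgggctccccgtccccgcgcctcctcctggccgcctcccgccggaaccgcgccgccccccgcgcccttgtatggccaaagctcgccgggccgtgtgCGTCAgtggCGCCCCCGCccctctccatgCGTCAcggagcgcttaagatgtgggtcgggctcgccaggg

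All motifs but the TATA box were searched on both strands of the 300 bases from 250 before to 50 after the start, and every CRE also holds the core site. The full CRE stood in 1 of the 8 promoters, that of Dusp1, and in 1.79% of all 32851 promoters of the same length. The core site stood in 5 of the 8, those of Fos, Fosb, Junb, Dusp1 and Nr4a1, and in 20.8% of all promoters. Nr4a1 had 4 core sites, all on the opposite strand. The EGR motif stood in 3 of the 8, those of Fosb, Zfp36 and Nr4a1, and in 5.55% of all promoters. The CArG box stood in 1, that of Zfp36, and in 1.63% of all. The TATA box stood in 2, starting 33 bases before the start site in Fos and at base 1 in Junb, and in 8.32% of all. The AP-1 motif TGANTCA stood in none of the 8 and in 7.81% of all promoters. A match describes the sequence and is not a measured binding site. Sites outside these 300 bases, and the promoters of Egr1 and Ier2, were not searched, so a missing match does not show that a gene lacks the element.

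The AU-rich heptamer TATTTAT, a core of the elements through which short-lived mRNAs are decayed, stood in the 3′ untranslated region of 6 of the 10 genes and in 29.5% of 20718 protein-coding genes. Among the 11340 genes whose 3′ untranslated region was within the length range of these 10, 32.1% held it. Dusp1 and Zfp36 had 3 copies each, Fos and Klf6 had 2, Fosb and Jun had 1, and no copy was found in Junb, Egr1, Ier2 or Nr4a1. The first copy in Fos, Dusp1 and Zfp36 is shown in capitals, in GRCm39 coordinates and written 5′ to 3′ along the mRNA with T for U. Zfp36 itself encodes a protein that binds such elements.
Fos, chr12:85523879-85523903, plus strand: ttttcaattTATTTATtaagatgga
Dusp1, chr17:26725135-26725159, minus strand: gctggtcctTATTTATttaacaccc
Zfp36, chr7:28076393-28076417, minus strand: tgggcccttTATTTATgacgacttt

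Jun, Junb and Ier2 have a single exon, against 5.74% of 21537 protein-coding genes in the table. The genes lie on chromosomes 4 (Jun, 94937271 to 94940459), 7 (Fosb, 19036621 to 19043976, and Zfp36, 28076209 to 28079710), 8 (Ier2, 85387960 to 85389483, and Junb, 85701113 to 85705359), 12 (Fos, 85520658 to 85524047), 13 (Klf6, 5911481 to 5920393), 15 (Nr4a1, 101151980 to 101172681), 17 (Dusp1, 26724564 to 26781102) and 18 (Egr1, 34992876 to 34998049) of GRCm39. Jun, Junb, Dusp1 and Zfp36 overlap other genes of the table, mostly on the opposite strand, and the strand setting of the counting is not given in the sources used here, so their reads may be shared. The partner with the highest level was Prdx2, which overlaps Junb and encodes a peroxidase abundant in red cells. Prdx2 was highest in maternal DC-depleted pIUT, at 5443 CPM, where Junb was lowest.

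The 10 genes together took 1.16% of the counts of maternal cells without IUT, 0.387% after DC control mIUT, 0.530% after DC control pIUT and 0.0305% after DC-depleted pIUT (95% Wilson interval 0.0299% to 0.0310%). In recipient cells their share was 0.893%, 0.389%, 0.407% and 0.333% in the same order of treatments. The maternal cells of DC-depleted pIUT thus held 10.9 to 38.0 times less of these transcripts, as a share of counts, than any other library. With hemoglobin genes taken out of the total, the maternal shares were 1.27%, 0.394%, 0.634% and 0.0360% in the same order. The 39 other immediate-early genes of a wider list took 0.0491% in maternal DC-depleted pIUT and 0.273% to 0.772% elsewhere.

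**Figure D1:**
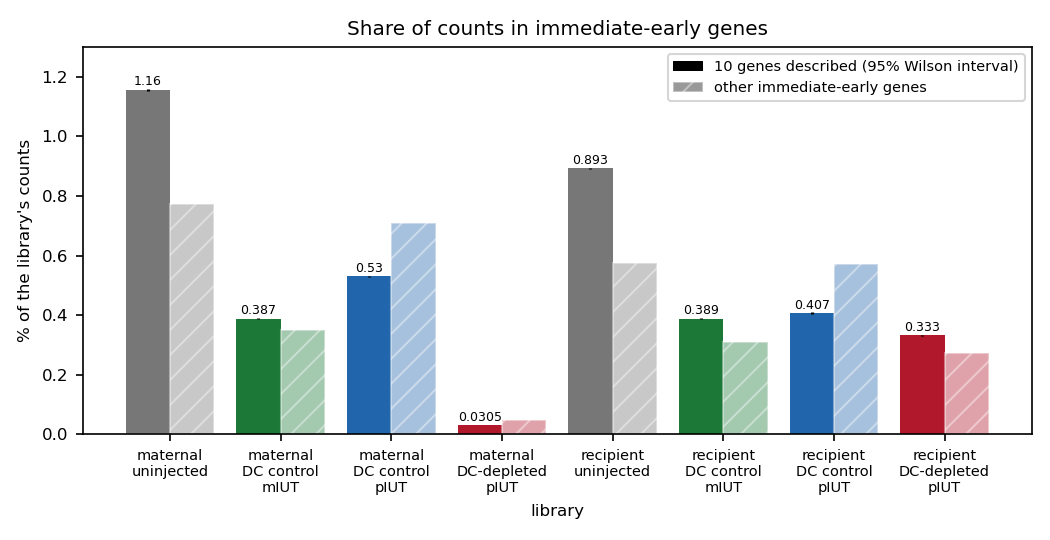
Share of each library's counts (%, vertical axis from 0) taken by the 10 genes (solid bars, with 95% Wilson intervals too narrow to see) and by 39 other immediate-early genes (hatched bars) in the 8 libraries. The bars of maternal DC-depleted pIUT stand at 0.0305% and 0.0491%, and those of uninjected pups are the highest of each origin.

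Fos and Fosb encode Fos partners of the AP-1 dimer. In maternal cells Fos was at 2270 CPM without IUT, 761 after DC control mIUT, 545 after DC control pIUT and 62.7 after DC-depleted pIUT. In recipient cells it was at 3019, 815, 348 and 680 CPM in the same order. Both uninjected libraries were highest, and maternal DC-depleted pIUT was 5.55-fold below the next lowest library.

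Fosb was the least abundant of the 10 per kilobase of canonical transcript in each of the 8 libraries. Over all annotated exons it was lowest in 7, and in recipient uninjected Nr4a1 was lower, at 5.91 against 8.98 CPM per kilobase. It was at 30.6, 0, 9.21 and 0.666 CPM in maternal uninjected, DC control mIUT, DC control pIUT and DC-depleted pIUT. The recipient values were 56.1, 5.86, 12.2 and 14.2 CPM. No Fosb count fell in maternal DC control mIUT, a level at least 395-fold lower than in maternal uninjected when 3 counts are taken as the limit that 0 allows. That library also lacked other genes, as given above, and its part in the missing Fosb was not tested.

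Jun and Junb encode Jun partners of AP-1, Jun being the stronger activator and Junb often acting against it. Jun was at 1116, 817, 279 and 21.1 CPM in the maternal libraries (uninjected, DC control mIUT, DC control pIUT, DC-depleted pIUT) and at 427, 929, 121 and 173 CPM in the recipient libraries. Junb was at 2950, 290, 833 and 34.3 CPM in maternal cells and at 1426, 278, 966 and 294 CPM in recipient cells. Jun was thus high where Junb was low in both DC control mIUT libraries, and both genes were lowest in maternal DC-depleted pIUT, 5.73-fold and 8.12-fold below the next library.

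Egr1 and Klf6 encode zinc finger transcription factors. Egr1 was at 403, 243, 418 and 5.45 CPM in maternal cells and at 292, 268, 137 and 97.4 CPM in recipient cells. It was the only one of the 10 that was highest in maternal DC control pIUT, and its level in maternal DC-depleted pIUT (95% interval 4.68 to 6.31 CPM) was 17.9-fold below the next lowest library. Klf6 was at 655, 730, 243 and 18.3 CPM in maternal cells and at 424, 846, 244 and 199 CPM in recipient cells. Like Jun, Klf6 was higher in both DC control mIUT libraries than in any other IUT library.

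Nr4a1 encodes the orphan nuclear receptor Nur77, which antigen receptor signals induce in lymphocytes. In maternal cells Nr4a1 was at 144 CPM without IUT, 0.0775 after DC control mIUT, 137 after DC control pIUT and 3.24 after DC-depleted pIUT. In recipient cells it was at 64.5, 22.0, 218 and 85.4 CPM. Only 3 counts fell in maternal DC control mIUT (95% interval 0.0160 to 0.226 CPM), and recipient DC control mIUT was the lowest recipient library. Recipient DC control pIUT was the highest of all 8. Summed T cell markers were also highest there, at 4300 CPM against 163 to 3061 CPM elsewhere, and their part in the Nr4a1 level was not tested.

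Dusp1 encodes a phosphatase that switches off MAP kinases. It was at 1523, 965, 1009 and 142 CPM in maternal cells and at 1630, 1497, 579 and 481 CPM in recipient cells. Dusp1 was the most abundant of the 10 per kilobase, with a median of 496 CPM per kilobase of canonical transcript over the 8 libraries, and it ranked first in maternal DC-depleted pIUT. Its gap to the next lowest library, 3.38-fold, was the smallest among the 8 genes that were lowest there. Measured over all annotated exons, its median of 297 CPM per kilobase was below the 306 of Fos.

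Zfp36 encodes tristetraprolin, which directs mRNAs with AU-rich elements to decay. It was at 1366, 277, 446 and 20.3 CPM in maternal cells and at 1134, 462, 429 and 236 CPM in recipient cells. Ier2 encodes a small nuclear protein of the immediate-early response. It was at 993, 373, 220 and 47.7 CPM in maternal cells and at 383, 513, 552 and 254 CPM in recipient cells. Zfp36 was highest in both uninjected libraries, as were Fos, Fosb, Junb and Dusp1, whereas Ier2 in recipient cells was lower in uninjected than in DC control mIUT or pIUT.

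**Figure D2:**
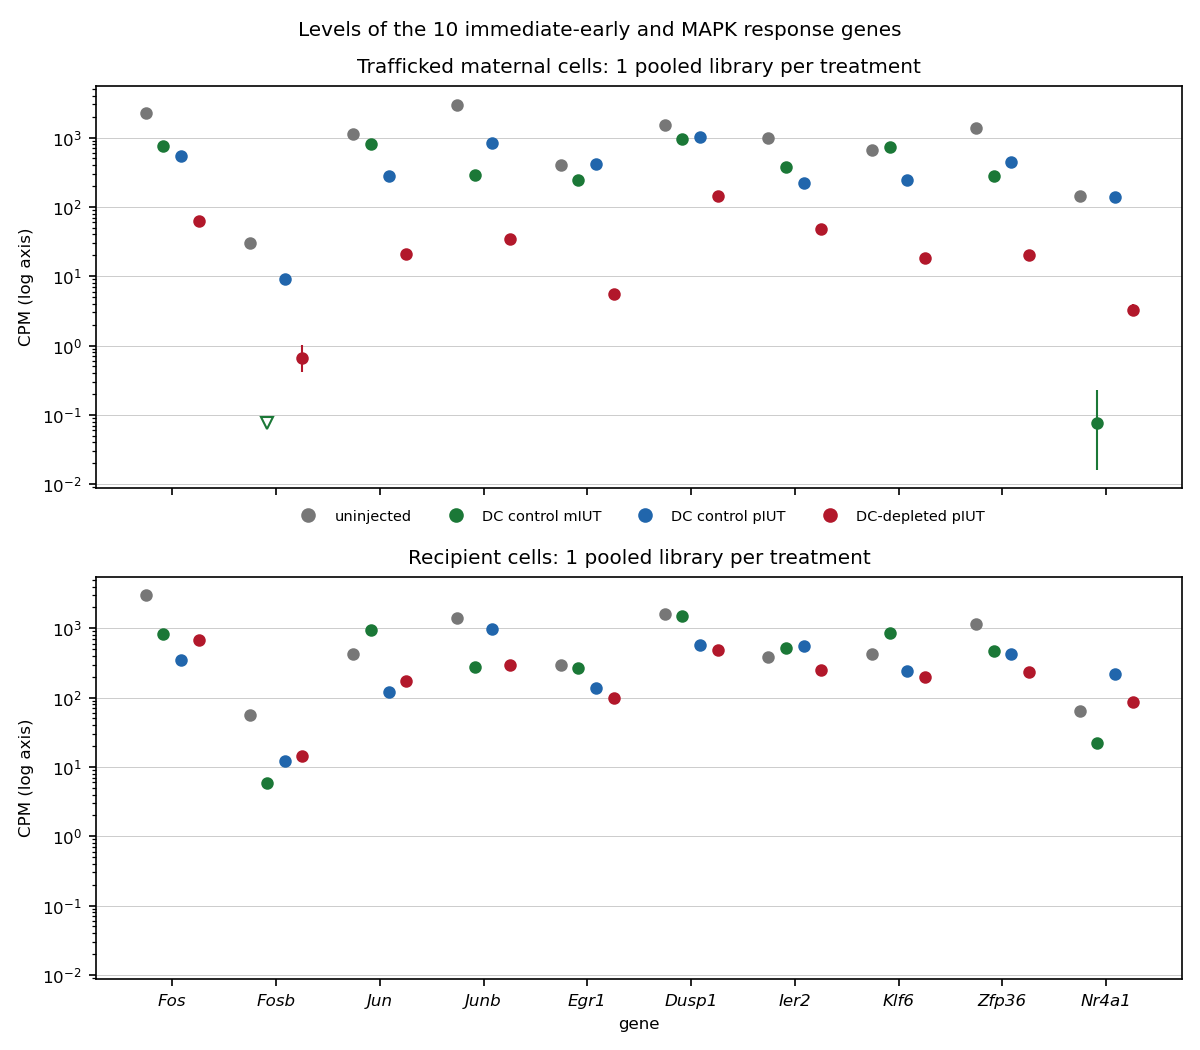
Level of each of the 10 genes (CPM, log axis) in the 4 maternal libraries (upper panel) and the 4 recipient libraries (lower panel), 1 point per library with its 95% Poisson interval. The open triangle marks Fosb at 0 counts, drawn at the level of 3 counts. In maternal cells 8 genes are lowest in DC-depleted pIUT, and Fosb and Nr4a1 are lowest in DC control mIUT.

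In all, 8 of the 10 genes were lowest in maternal DC-depleted pIUT, and Fosb and Nr4a1 were second lowest there. The highest library was an uninjected one for 7 genes. Ordered by level, most neighbouring libraries were not set apart: for each gene, 4 to 6 of the 7 steps between neighbours were under 2-fold.

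For maternal DC depletion before pIUT, the maternal DC-depleted pIUT library was set against the maternal DC control pIUT library. All 10 genes were at least 2-fold lower, where 39.0% of the 15663 genes tested were at least 2-fold lower and 36.3% at least 2-fold higher. All 10 were also at least 4-fold lower (29.2% of all genes) and 8 at least 8-fold lower (21.9% of all genes). Their median log2 ratio was -3.76, against -0.07 over all genes tested. A gene counted as tested when at least 1 of both libraries held 10 counts.

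Egr1 had the largest difference of the 10, 76.6-fold lower (95% counting interval 66.2 to 89.3), followed by Nr4a1 at 42.4-fold (35.0 to 51.8). Junb was 24.3-fold lower (22.9 to 25.8) and Zfp36 22.0-fold lower (20.4 to 23.8). Fosb, Klf6 and Jun were 13.8-fold, 13.3-fold and 13.2-fold lower, and Fos was 8.70-fold lower. The smallest differences were those of Dusp1, 7.11-fold lower, and Ier2, 4.62-fold lower. Of all genes tested, 12.2% had a lower ratio than Egr1 and 27.3% a lower ratio than Ier2, so large differences were common between these libraries. Hemoglobin took 15.4% and 16.4% of the counts of this pair, and summed erythroid markers were 180900 and 130700 CPM. Granulocyte markers were 10920 and 1692 CPM. Itgax, which encodes CD11c, held 1 count in DC-depleted and 611 in DC control pIUT (0.0303 and 12.1 CPM). Summed conventional dendritic cell markers were 157 CPM in DC-depleted and 61.7 CPM in DC control pIUT, with 7 and 5 of the 10 markers above 3 counts. Clec9a and Cd209a were at 0 in both, and Flt3, Batf3 and Ccr7 at 0 in DC control pIUT. The part of these cell types in the gene differences was not tested.

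In recipient cells of the same pups most of the 10 genes stayed within 2-fold. Recipient DC-depleted pIUT against recipient DC control pIUT had 3 genes at least 2-fold lower, Junb, Nr4a1 and Ier2 (14% of all genes), and none at least 2-fold higher (25.3%). The calls of Ier2 and Fos changed with the scaling. With library size alone Ier2 was within 2-fold (log2 -0.89) and Fos was at least 2-fold higher (1.20), where 11.5% of all genes were lower and 29.3% higher. Leaving out hemoglobin genes gave the same calls for Ier2 (-0.99) and Fos (1.10), and Fos was also past 2-fold with DESeq2 size factors (1.00). The median log2 ratio was -0.39, against 0.10 over all genes, with a range from -1.72 for Junb to 0.97 for Fos. For Egr1, the log2 ratio was -0.49 in recipient cells and -6.26 in maternal cells. With 1 library each, the difference between origins could not be tested within a treatment. Taking both origins together, with the origin as block in edgeR's quasi-likelihood test, DC-depleted pIUT against DC control pIUT gave log2 ratios below 0 for all 10 genes, with a median of -1.85. None of them, and 0 of the 13417 genes tested (0%), passed an adjusted p of 0.05. At an unadjusted p of 0.05 this edgeR test had 1 of the 10, Junb (adjusted p = 1), and 112 of all genes. The same fit gave 0 of the 10 past an adjusted p of 0.05 in each of the other 5 pairs of treatments (0% of all genes). At an unadjusted p of 0.05 this test had 7 of the 10 genes, all lower, and 662 of all genes in DC-depleted pIUT against uninjected, and 3 of the 10 and 1049 of all genes in DC-depleted pIUT against DC control mIUT. The other 3 pairs had 0 or 1 of the 10, beside 517 to 818 of all genes. Both origins of a treatment come from the same pups, so they are not independent replicates.

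**Figure D3:**
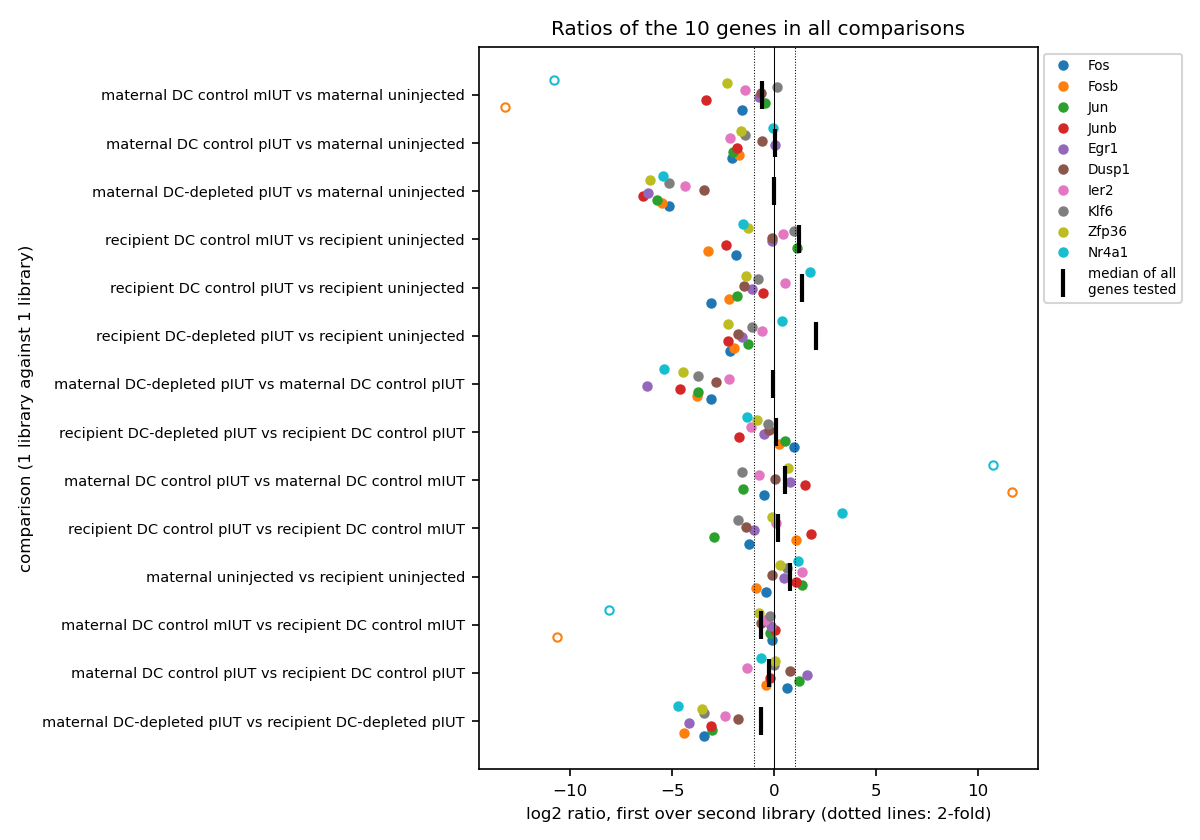
log2 ratio of each of the 10 genes (points, 1 colour per gene) in 14 comparisons of 1 library with another (rows), with the median over all genes tested as a vertical bar and dotted lines at 2-fold. Open circles are fitted values where a library held 3 counts or fewer. The points of the 3 comparisons with maternal DC-depleted pIUT first all lie left of the lower 2-fold line.

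Within DC-depleted pIUT the maternal library was also far below the recipient library. All 10 genes were at least 2-fold lower in maternal cells (45.1% of all genes, with 21.8% higher), with a median log2 ratio of -3.44 against -0.65 over all genes. Scaled by library size alone, all 10 remained at least 2-fold lower, with 54.5% of all genes lower, 13% higher and an all-gene median of -1.28. The ratios ran from 3.38-fold lower for Dusp1 to 26.4-fold lower for Nr4a1. In DC control pIUT, Egr1 and Jun were at least 2-fold higher in maternal cells (27.8%) and Ier2 at least 2-fold lower (35.1%). Their median there was 0.02, against -0.27 over all genes. In DC control mIUT none was at least 2-fold higher (22.3%) and Fosb and Nr4a1 were lower (44.5%), with a median of -0.34 against -0.66 over all genes. Those differences, 284-fold for Nr4a1 (96.7 to 1380, with 3 maternal counts) and at least 75.6-fold for Fosb (0 maternal counts, 3 taken as the limit), were larger than those of the same genes in DC-depleted pIUT, at 26.4-fold and 21.3-fold. In uninjected pups Jun, Ier2, Nr4a1 and Junb were at least 2-fold higher in maternal cells (47.8%) and none was lower (25.0%). The median of the 10 was 0.55, below the 0.79 over all genes. With the 4 treatments standing in for replicates, maternal and recipient libraries were paired by treatment in edgeR's quasi-likelihood test. None of the 10 genes passed an adjusted p of 0.05 or an unadjusted p of 0.05, and of 13417 genes tested 0 (0%) passed the adjusted and 275 the unadjusted threshold.

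The maternal IUT libraries were also set against maternal uninjected. In DC-depleted pIUT all 10 were at least 2-fold lower (36.9%, with 35.6% higher) and at least 8-fold lower (20.1%), with a median of -5.49 against -0.02 over all genes. Junb was 86.1-fold lower (81.2 to 91.3), the largest difference of the 10, and Dusp1 10.7-fold lower (10.4 to 11.1), the smallest. In DC control pIUT 7 genes were at least 2-fold lower (33.1%) and none higher (34.7%), with a median of -1.67 against 0.05. Egr1, Nr4a1 and Dusp1 were the exceptions, at log2 ratios of 0.05, -0.07 and -0.59. In DC control mIUT 6 genes were at least 2-fold lower (45.2%) and none higher (27.3%), with a median of -1.50 against -0.60. Jun, Klf6, Egr1 and Dusp1 stayed within 2-fold there, with Klf6 at a log2 ratio of 0.16. These 3 comparisons share the uninjected library.

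Of 11 heat shock genes, a family that stress during dissociation and sorting also induces, Hspa1a, Hspa1b, Hspa8, Dnajb1 and Hspb1 were highest in the same uninjected libraries. Summed over the list, both uninjected libraries were at 10080 and 8868 CPM and the other 6 at 973 to 3461 CPM, whereas Hspe1, a mitochondrial chaperonin subunit, was highest in maternal DC-depleted pIUT at 868 CPM. Hspa1b, an inducible chaperone, reached 3554 CPM without IUT in maternal cells and 2071 CPM in those of the recipient, and was at 26.4 CPM or less in the other 6, and its near-identical copy Hspa1a was at 2417, 2266 and 116 CPM or less. The part of heat shock genes in the immediate-early levels of uninjected pups was not tested. Against DC control pIUT, the maternal DC-depleted library had 3 heat shock genes at least 2-fold higher and 3 lower among 9 tested (36.3% and 39.0% of all genes), with a median of 0.36.

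Against recipient uninjected the comparison rests on the library with the most missing genes, and the median over all genes lay at 1.21, 1.35 and 2.05 for DC control mIUT, DC control pIUT and DC-depleted pIUT. In DC control mIUT, 5 of the 10 genes were at least 2-fold lower (27.2%) and 1, Jun, was higher (51.7%), with a median of -0.71. The call of Jun, at log2 1.12, was lost with library size alone (0.57) and with DESeq2 size factors (0.98). In DC control pIUT 6 were lower (21.5%) and 1, Nr4a1, was higher (52.9%), with a median of -1.25. Scaled by library size alone, 5 were lower there (19.8%). In DC-depleted pIUT 8 were lower (19.4%) and none higher (55.2%), with a median of -1.67, and only Ier2 and Nr4a1 were within 2-fold. Scaled by library size alone, 6 were lower there (15.5%). Without the uninjected library, each recipient IUT library was set against the mean log2 level of the other 2. Recipient DC control mIUT then had 4 genes at least 2-fold higher, Jun (log2 2.68), Klf6 (1.94), Dusp1 (1.50) and Egr1 (1.22), and 2 lower, Nr4a1 (-2.63) and Fosb (-1.16), where 23.5% of 17822 genes were higher and 41.6% lower. Recipient DC control pIUT had 2 higher, Nr4a1 (2.33) and Junb (1.76), and 2 lower, Jun (-1.73) and Fos (-1.10), beside 21.5% and 23.4% of all genes. In recipient DC-depleted pIUT 2 genes were then lower in place of 8, Klf6 (-1.19) and Ier2 (-1.07), with none higher, beside 16.8% of all genes lower and 33.8% higher.

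The donor strain comparison set DC control pIUT against DC control mIUT. In maternal cells 3 genes were at least 2-fold higher in pIUT (45.2%), Fosb, Nr4a1 and Junb, and 2 lower (29.1%), Klf6 and Jun. In recipient cells 3 were higher (36.0%), again Nr4a1, Junb and Fosb, and 4 lower (27.1%), Jun, Klf6, Dusp1 and Fos. The median log2 ratios were 0.38 in maternal and -0.54 in recipient cells, against 0.51 and 0.20 over all genes. Scaled by library size alone, 5 were higher (50.9%) and 1 lower (23.4%) in maternal cells, and 3 were higher (48.4%) and 2 lower (17.1%) in recipient cells, and the medians of the 10 were 0.94 and 0.17, so the recipient median changed sign. Junb was higher in pIUT at log2 1.52 in maternal and 1.80 in recipient cells, and Jun was lower at -1.55 and -2.94. For Fosb and Nr4a1 the maternal ratio rests on 0 and 3 counts in DC control mIUT, whereas the recipient log2 ratios were 1.05 and 3.31.

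Ratios of genes within a library need no scaling. Of 7 pairs computed, chosen after the levels were seen, 6 had both DC control mIUT libraries above the other 6. Jun counts exceeded Junb counts 2.82-fold (2.76 to 2.88) in maternal and 3.34-fold (3.25 to 3.42) in recipient DC control mIUT, and in the other 6 libraries the ratio was 0.125 to 0.615. Klf6 over Zfp36 was 2.64 and 1.83 in these libraries and 0.374 to 0.901 elsewhere. Klf6 over Junb was 2.52 and 3.04 against 0.222 to 0.677. Egr1 over Nr4a1 was 3130 (1070 to 15200, with 3 counts of Nr4a1) and 12.2, against 0.628 to 4.53. Fos over Fosb was at least 9830 (0 counts of Fosb, 3 taken as the limit) and 139 (120 to 163), against 28.6 to 94.0. The highest of the latter, in maternal DC-depleted pIUT, rests on 22 counts of Fosb, and its interval (61.9 to 150) overlaps that of recipient DC control mIUT. Fos over Junb was 2.63 (2.57 to 2.68) and 2.93 in DC control mIUT, and the other 6 ran from 0.360 to 2.32 (2.28 to 2.36), the latter in recipient DC-depleted pIUT. Dusp1 over Fos was the exception, at 1.27 and 1.84 in DC control mIUT and 0.540 to 2.27 in the other 6. Granulocyte markers were highest in the same DC control mIUT libraries, with all 10 markers above 3 counts, and maternal and recipient cells of a treatment come from the same pups. The part of granulocytes in these ratios was not tested.

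**Figure D4:**
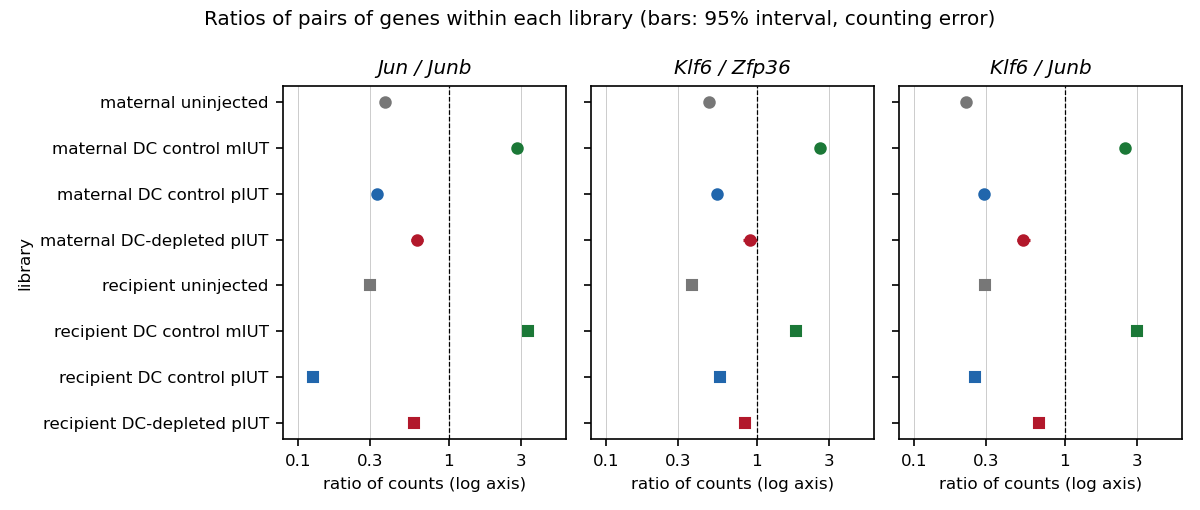
Ratio of counts (log axis) of Jun to Junb, Klf6 to Zfp36 and Klf6 to Junb within each library (rows, circles for maternal and squares for recipient cells), with 95% counting intervals and a dashed line at 1. The 2 DC control mIUT libraries lie right of 1 in all 3 panels and the other 6 lie left of it.

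The make-up of the remaining signal also differed. Dusp1 was 39.9% of the counts of the 10 genes in maternal DC-depleted pIUT and 13.3% to 26.6% elsewhere, and Ier2 was 13.4% there and 4.32% to 15.3% elsewhere. Egr1 was 1.53% there and 3.30% to 10.1% elsewhere. Fos ranged from 9.65% in recipient DC control pIUT to 34.1% in recipient uninjected, and Junb from 4.94% in recipient DC control mIUT to 26.8% in recipient DC control pIUT.

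Other genes of the same pathway were followed in maternal DC-depleted against maternal DC control pIUT. Of 39 other immediate-early genes, 34 were tested, of which 30 were at least 2-fold lower and 2 higher, with a median of -3.79. Over all genes in this comparison, 39.0% were lower and 36.3% higher. The most abundant were Nfkbia, the inhibitor of NF-kB, at 88.9 against 1429 CPM, and Cebpb, a myeloid transcription factor, at 25.3 against 726 CPM. The 2 higher ones, named after their values were seen, were Myc (log2 1.70) and Per1 (37 against 0 counts). Of 11 MAPK feedback inhibitors, 8 were at least 2-fold lower and none higher (39.0% and 36.3% of all genes), with a median of -2.85. Dusp5, a nuclear phosphatase for MAP kinases, was at 9.03 against 75.7 CPM, and Dusp2 at 8.45 against 20.8 CPM.

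For the kinases that carry the signal the median lay nearer to 0. Of 23 MAPK cascade kinases and GTPases, 11 were at least 2-fold lower and 1 higher (39.0% and 36.3% of all genes), with a median of -0.98. Rps6ka1, a kinase activated by MAP kinases, was at 23.8 against 46.9 CPM. Of 10 upstream transcription factors tested, 3 were lower and 4 higher (39.0% and 36.3% of all genes), with a median of 0.20. Srf, the factor that binds the CArG box, was at 2.00 CPM in DC-depleted and 0 in DC control pIUT. Atf1, which binds the CRE, was at 76.6 against 53.2 CPM.

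**Figure D5:**
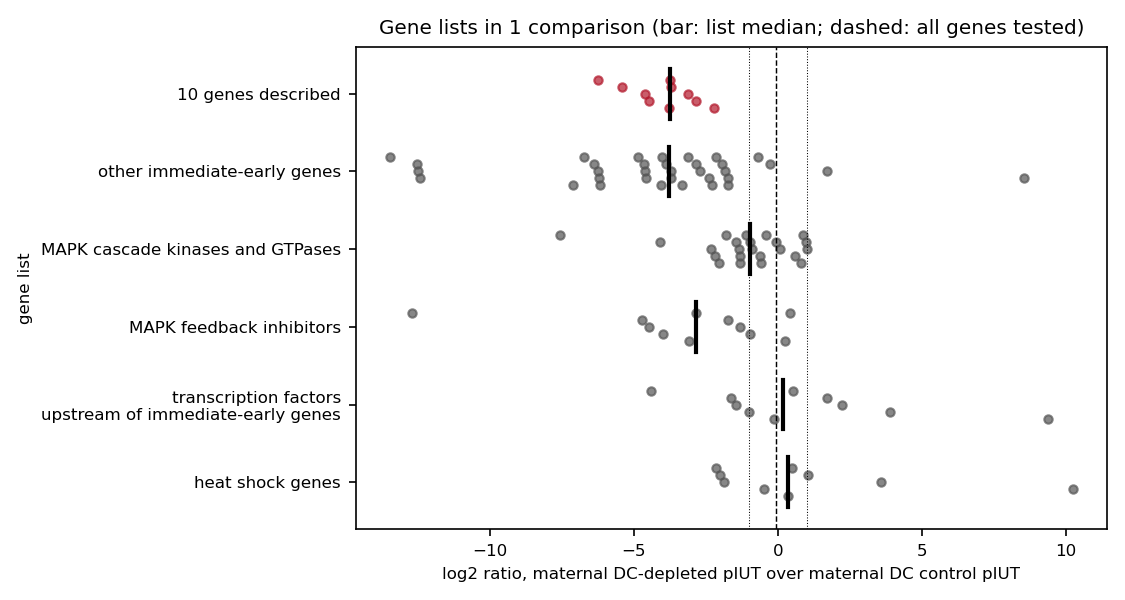
log2 ratio of maternal DC-depleted pIUT over maternal DC control pIUT (horizontal axis) for the genes of each list (rows, 1 point per gene tested), with the list median as a bar and the median over all genes tested as a dashed line. The 10 genes have a median of -3.76 and the other immediate-early genes -3.79, whereas upstream transcription factors and heat shock genes lie at 0.20 and 0.36.

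Across the 8 libraries, the non-member genes whose log2(CPM + 1) followed the mean of the 10 most closely included Gramd1a (Pearson r = 0.96), Rasa3, Klf2, Ccdc9, Il4ra, Wasl, Prkcb, Tnip1 and Ncoa3 (r = 0.94). Klf2, a zinc finger factor that is also in the wider immediate-early list, was at 6.63 CPM in maternal DC-depleted pIUT and 81.3 to 942 CPM elsewhere. These r describe 8 libraries, of which each maternal and recipient pair shares its pups, and each of these non-member genes was lowest in maternal DC-depleted pIUT. Among the 10 genes themselves, the 45 pairs had a median r of 0.830 over 8 libraries and 0.487 over the 7 without maternal DC-depleted pIUT.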

How the data were processed

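The deposited table gives estimated counts per gene made by the authors with salmon, not normalised, for the 8 libraries; the methods name featureCounts for counting, GRCm39 and the GENCODE M26 annotation, and the submitters' processing notes name StringTie and bcl2fastq. Symbols came from GENCODE M39 by gene identifier (97.99% of 52784 matched). Receptor clonotype files were not used.

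Counts were rounded and normalised with TMM factors over 8 libraries (edgeR 4.0.16, R 4.3.3). CPM carry exact Poisson intervals, shares Wilson intervals and ratios of counts exact conditional intervals, all at 95% and for counting error only. Ratios between libraries are edgeR fold changes from its exact-test function at dispersion 0.4, as in the study's methods, with no p-value because each side is 1 library. Origins were compared over the 4 treatments with edgeR's quasi-likelihood test, treatment as block, and treatments over both origins, origin as block, on genes with at least 10 counts in 4 libraries, with Benjamini-Hochberg adjustment. A gene was tested with at least 10 counts in 1 of the libraries compared and called at 2-fold. A level of 0 was bounded at 3 counts. Promoters came from RefSeq (GRCm38.p6) and 3′ untranslated regions from GENCODE M39. Python 3.11.15 was used for the summaries.

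All 10 members were named. Of each other list, the 2 most abundant genes and those with the highest and lowest mean log2 ratio against uninjected pups were eligible, and the 10 genes most like the members over the libraries. Some genes that this rule names are not reported here. The members and lists were chosen with earlier results of these data known.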

Additional observations from a re-analysis of the deposited data

How the results depend on the processing

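In maternal DC-depleted pIUT all 10 genes were at least 2-fold lower than in maternal DC control pIUT, maternal uninjected and recipient DC-depleted pIUT under each scaling, filter and prior count tried. The median log2 ratio to maternal DC control pIUT ran from -4.34 (library size alone) to -3.72 (prior count 5). No gene's ratio changed sign with a call under any alternative. Counts within other comparisons moved, and the cause was not tested. In what follows the share of all genes with the same call stands in parentheses. At a fold of 4, 3 genes were lower in maternal DC control pIUT than in uninjected (23.7%). Against recipient uninjected, 0 were then higher (45%) and 2 lower (18.4%) in DC control mIUT, 0 higher (46.5%) and 2 lower (13.5%) in DC control pIUT, and 3 lower (11%) in DC-depleted pIUT. For recipient DC-depleted against DC control pIUT 0 were lower at a fold of 4 (7.15%). For pIUT against mIUT 0 were lower in maternal cells (19.4%), and 1 was higher (23.2%) and 1 lower (13.9%) in recipient cells. Between origins 0 were higher in uninjected (41.2%), and 0 higher (19.4%) and 0 lower (25.8%) in DC control pIUT.

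With library size alone, 0 genes were higher in recipient DC control mIUT than in uninjected (47.5%), 1 was higher in recipient DC-depleted than in DC control pIUT (29.3%), 5 were higher (50.9%) and 1 lower (23.4%) in maternal pIUT than in mIUT, and 2 were lower in recipient pIUT than in mIUT (17.1%). DESeq2 size factors gave 0 (50.4%) and 1 (26%) for the first 2 of these counts, and leaving out hemoglobin genes gave 1 (27.4%) for the second. Against recipient uninjected, library size alone also gave 5 lower in DC control pIUT (19.8%) and 6 lower in DC-depleted pIUT (15.5%). With 10 counts required in both libraries, 8 of the 10 genes were tested where maternal DC control mIUT took part, of which 1 was higher in maternal pIUT than in mIUT (24.1%), and 0 were lower in maternal than in recipient DC control mIUT (23.3%). Set against the other 2 recipient IUT libraries in place of recipient uninjected, 4 were higher (23.5%) and 2 lower (41.6%) in DC control mIUT, 2 higher (21.5%) and 2 lower (23.4%) in DC control pIUT, and 2 lower in DC-depleted pIUT (16.8%).

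TMM factors without the 2 libraries that lack most genes changed no ratio, since each library is scaled against the same reference library. Unrounded counts and no filter moved no count of called genes. The per-kilobase scale over all exons and the CRE half-site were added after the data were seen. No library could be left out of a group, since each group is 1 library. Maternal and recipient libraries of a treatment share their pups. The comparison of origins with the treatment as replicate block, also added after the data were seen, gave 0 of the 10 genes past an adjusted p of 0.05 (edgeR quasi-likelihood, 0 at an unadjusted p under 0.05), as did the fit without the replicate block (0 and 0). The comparison of treatments with the origin as replicate block, added likewise, gave 0 past an adjusted p of 0.05 in each of 6 pairs of treatments, with 0 to 7 of the 10, and 112 to 1049 of all 13417 genes, at an unadjusted p under 0.05. Low counts limit the values of Fosb and Nr4a1 in maternal DC control mIUT (0 and 3 counts) and of Fosb in maternal DC-depleted pIUT (22 counts).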
